A study of Homo sapiens with 12 samples.

Results

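Cadherins, catenins and desmosomal genes were followed in WI-38 cells, a line of normal human lung fibroblasts, by RNA sequencing. The set held 9 genes of the 25702 genes in the count table, chosen by symbol. The cadherins were CDH2, CDH11 and CDH13, the catenins CTNNA1, CTNNB1 and CTNND1, and the desmosomal genes DSP, JUP and PKP2. Confluent cells were given 2 ng/mL of TGF-β or left without it, and each arm was kept so. Cultures taken after 1 day are called D1 when untreated and D1+ TGF-β when treated, and those taken after 20 days are called D20 when untreated and D20+ TGF-β when treated. Each of the 4 conditions had 3 sequenced flasks of the 5 that gave RNA. The D20 flasks of each treatment had been seeded from 1 flask, so the spread between them is the spread after 1 shared seeding. The labels give passages 2 to 3 for D1 and 5 to 6 for D20, and all cells came from 1 line. The D1 flasks were taken 1 day after treatment at confluence, while the D20 flasks were seeded to be nearly confluent on day 20. Time in culture, passage, re-seeding and cell density therefore cannot be told apart.

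Cadherins are membrane proteins whose outer repeats bind cadherins of neighbouring cells in the presence of calcium. Their tails hold p120-catenin (CTNND1), which keeps the cadherin at the surface, and β-catenin (CTNNB1) or plakoglobin (JUP), and these in turn bind α-catenin (CTNNA1), the link to actin. Desmosomes use the same plan with desmogleins and desmocollins outside, plakoglobin and plakophilins (PKP2) beneath them, and desmoplakin (DSP) as the link to intermediate filaments. Fibroblasts carry N-cadherin (CDH2) and OB-cadherin (CDH11), and CDH11 is also known from contractile myofibroblasts. T-cadherin (CDH13) is held by a lipid anchor and has no tail for catenins.

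Levels are given in cpm, counts scaled to library size and composition, and differences as log2 fold changes with their standard errors (SE). A gene was called changed at an adjusted p under 0.01 by edgeR's quasi-likelihood test over the 9490 genes that reached 10 cpm in 6 or more libraries. Of the 9 genes, 8 passed that filter and PKP2 did not. Totals per library ran from 8674488 to 18286197 counts. ACTA2, the α-smooth muscle actin gene, stood at 692 to 850 cpm at D1+ TGF-β and 125 to 229 cpm at D1, and at 285 to 357 cpm at D20+ TGF-β and 277 to 297 cpm at D20, where the flasks overlapped. All 9 fibroblast markers passed the filter and none of 9 epithelial markers did, with GRHL2, KRT5, KRT14 and OVOL1 at 0 in all libraries and a summed epithelial level of 0.873 to 2.25 cpm. Of the endothelial markers only TEK passed, averaging 113 cpm, and CDH5 was at 0. The summed endothelial level, mostly TEK, was 223 to 251 cpm at D20 and 46.3 to 80.4 at D1. It was 35.0 to 40.9 cpm at D1+ TGF-β and 78.3 to 152 at D20+ TGF-β. Which cells the TEK counts came from was not tested. None of 7 striated muscle markers passed the filter: MYOD1, MYOG and MYH6 were at 0, and TNNT2 was highest, averaging 0.726 cpm. The summed striated muscle level was 0.859 to 1.11 cpm at D1 and 1.89 to 2.38 at D1+ TGF-β. It was 0.673 to 1.26 cpm at D20 and 2.0 to 2.2 at D20+ TGF-β. The immune marker LYZ was at 0, and the summed immune level, mostly CD68, was 38.6 to 62.8 cpm over all flasks. Replicate 2 of D1 stood apart from its mates, with a root mean square log2 difference of 0.335 against 0.276 and 0.284, as did replicate 3 of D20+ TGF-β, with 0.294 against 0.216 and 0.219. The other conditions were closer, at 0.138 to 0.155 for D1+ TGF-β and 0.132 to 0.148 for D20. Replicates 1 and 3 of D1 were also apart from each other. Their chi-square per degree of freedom was 12.9, against 1.78 to 4.49 between flasks within D1+ TGF-β or within D20. In bulk RNA fewer cells of a type and less RNA per cell cannot be told apart.

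In D1+ TGF-β vs D1, the early response, 3 of the 8 genes tested were called higher (CDH2, DSP and CDH11) and 0 lower, where 6.89% of all genes were called higher and 6.50% lower. In D20+ TGF-β vs D20, the response after long treatment, 2 genes were higher (CDH2 and DSP) and 3 lower (CDH11, CTNNA1 and CTNND1), against 12.8% and 14.7% of all genes. Between D20 and D1 under TGF-β, 1 gene was higher (JUP) and 3 lower (CDH2, CDH11 and CDH13), against 17.2% and 17.7%. In D20 vs D1, the effect of time without TGF-β, 3 were higher (JUP, CDH11 and CTNND1) and 2 lower (CDH2 and CDH13), against 18.9% and 17.6%. The response itself differed between D20 and D1 for 2 genes, both lower at D20 (CDH11 and CTNND1), where 4.51% of all genes differed upward and 5.87% downward. The median log2 fold change of the 8 genes was 0.07 at D1 and -0.16 at D20, beside -0.02 and 0.01 over all genes. It was -0.18 under TGF-β with time and 0.06 without, both beside 0.01 over all genes. Without replicate 2 of D1 the counts were the same 3, 5, 4, 5 and 2. Without replicate 3 of D20+ TGF-β they were 3, 4, 3, 5 and 2, CDH11 dropping out of both comparisons of D20+ TGF-β with another condition.

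Per kilobase of the canonical transcript, the catenins were the most abundant of the set. CTNNA1 lay between 122 and 154 cpm per kb as condition means, CTNNB1 between 117 and 130, and CTNND1 between 44.9 and 62.5. CDH2 ran from 5.91 to 44.1 cpm per kb, JUP from 14.9 to 32.4, CDH11 from 12.1 to 21.1 and CDH13 from 4.35 to 8.33. DSP was lower, at 1.10 to 3.58, and PKP2 stayed at or under 0.0574. The fold between the highest and lowest condition mean was 7.45 for CDH2, 3.24 for DSP, 2.17 for JUP, 1.92 for CDH13, 1.74 for CDH11, 1.39 for CTNND1, 1.26 for CTNNA1 and 1.10 for CTNNB1.

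CDH2 encodes N-cadherin, the cadherin of mesenchymal and neural cells, on chromosome 18 at 25512843 to 25757910 of GRCh37, minus strand. CDH2 was chosen for a sequence because it had the widest range of the set. Of its RefSeq starts the first was picked, as more copies of the motif marked below precede it. The 250 bases before that start, at chr18:25757095-25757344 on the minus strand, are shown. They hold no GENCODE exon and lie within an intron of a longer CDH2 transcript. Capitals mark CAGAC, the core that SMAD proteins are known to bind, on either strand; the sequence is RefSeq's, from a table of GRCh38.p14, and was placed on GRCh37 by an exact match.
CDH2: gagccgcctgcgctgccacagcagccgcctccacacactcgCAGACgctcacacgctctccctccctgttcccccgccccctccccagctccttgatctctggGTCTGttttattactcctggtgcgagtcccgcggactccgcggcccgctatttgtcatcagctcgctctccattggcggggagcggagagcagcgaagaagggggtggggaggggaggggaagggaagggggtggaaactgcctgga
CAGAC or its complement GTCTG was found 2 times here, and at least once in 38% of 35116 RefSeq starts over the same length. The share of starts with at least 2 was not computed. The other CDH2 start held 1, and the start of CTNNB1, for which no TGF-β response was called, also held 2. CAGGTG (or CACCTG), an E-box form, was not found in this window.

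CDH2 was at 30.2, 41.3 and 34.1 cpm at D1 and at 178, 193 and 160 cpm at D1+ TGF-β. At D20 it was at 24.2, 23.4 and 23.6 cpm without and at 84.9, 84.1 and 109 cpm with TGF-β. No flask of any condition overlapped with a flask of another, with D20 lowest, then D1, then D20+ TGF-β, and D1+ TGF-β highest. The response was 5.02-fold at D1 (log2 fold change 2.33, SE 0.12, edgeR adjusted p = 5.54e-08) and 3.90-fold at D20 (1.96, SE 0.13, adjusted p = 1.16e-07). The responses differed by -0.36 on the log2 scale (95% interval -0.74 to 0.01, edgeR adjusted p = 0.157), which did not pass the threshold. CDH2 fell with time in both arms, 1.91-fold under TGF-β (log2 fold change -0.94, SE 0.12, edgeR adjusted p = 3.36e-05) and 1.49-fold without it (-0.57, SE 0.13, adjusted p = 0.0024). The latter call was lost without replicate 2 of D20 (adjusted p = 0.0108, edgeR) or without replicate 3 (adjusted p = 0.011, edgeR).

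CDH11, on chromosome 16 at 64977656 to 65160015, minus strand, encodes the cadherin first named in osteoblasts, which is also typical of fibroblasts. It was at 74.2, 100 and 70.6 cpm at D1 and at 132, 150 and 132 cpm at D1+ TGF-β, with no overlap, and was 1.69-fold higher with TGF-β (log2 fold change 0.76, SE 0.13, edgeR adjusted p = 0.00121). At D20 the order was turned round. The D20 flasks stood at 123, 144 and 158 cpm and the D20+ TGF-β flasks at 93.1, 111 and 87.1 cpm, again with no overlap, a 1.46-fold lower level with TGF-β (log2 fold change -0.55, SE 0.13, edgeR adjusted p = 0.00509).

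The difference between these responses of CDH11 was -1.30 on the log2 scale (SE 0.19, 95% interval -1.71 to -0.90, edgeR adjusted p = 0.000458) and passed the threshold in all 21 other settings that gave it, at -1.47 to -1.21 without each flask in turn. The fall at D20 on its own was less firm: its adjusted p by edgeR was 0.019 without replicate 2 of D20, 0.0298 without replicate 3 of D20, 0.0245 without replicate 1 of D20+ TGF-β and 0.0187 without replicate 3 of D20+ TGF-β. Without TGF-β, CDH11 rose 1.73-fold with time (log2 fold change 0.79, SE 0.13, edgeR adjusted p = 0.00027). Under TGF-β it fell 1.42-fold (-0.51, SE 0.13, edgeR adjusted p = 0.00656), a call lost without any 1 flask of D1+ TGF-β, without replicate 1 or 3 of D20+ TGF-β and without replicate 2 of D20 (adjusted p from 0.0105 to 0.0348, edgeR). The levels of D1 and D20+ TGF-β overlapped, as did those of D1+ TGF-β and D20.

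CDH13, T-cadherin, lies on chromosome 16 at 82660570 to 83834245, plus strand, and spans several annotated genes, among them CDH13-AS1 and CDH13-AS2 on the other strand and HSBP1 on its own strand. It was at 71.2, 60.1 and 65.5 cpm at D1 and 62.3, 61.1 and 59.6 cpm at D1+ TGF-β, and at 35.8, 37.9 and 37.7 cpm at D20 and 32.6, 30.4 and 39.7 cpm at D20+ TGF-β. Flasks with and without TGF-β overlapped on both days, while every D20 flask was below every D1 flask. The TGF-β responses were -0.10 at D1 (95% interval -0.30 to 0.09) and -0.12 at D20 (95% interval -0.33 to 0.09) on the log2 scale. With time it fell 1.76-fold without TGF-β (log2 fold change -0.82, SE 0.09, edgeR adjusted p = 1.01e-05) and 1.78-fold with it (-0.84, SE 0.10, adjusted p = 1.59e-05).

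**Figure D1:**
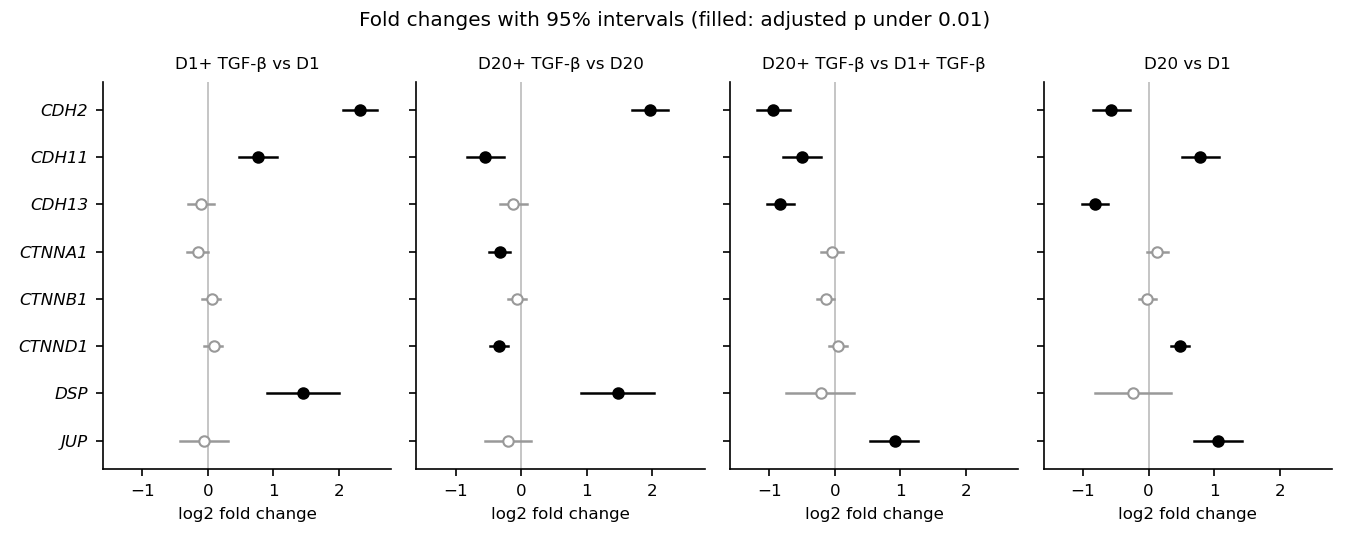
Log2 fold changes (horizontal axes, log2 scale) of the 8 tested genes in the 4 comparisons, with 95% intervals; filled points passed an adjusted p of 0.01 by edgeR. CDH2 and DSP lie to the right in both TGF-β comparisons, CDH11 lies at 0.76 in the first and at -0.55 in the second, and JUP and CDH13 lie apart from 0 only in the comparisons of D20 with D1.

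Per kilobase, CDH2, CDH11 and CDH13 divided their summed level differently with and without TGF-β. The summed level of CDH2, CDH11 and CDH13 was 29.2 ± 3.08 cpm per kb (SD, n = 3) at D1 without and 72.3 ± 5.58 with TGF-β, and 31.7 ± 2.64 at D20 without and 41.9 ± 3.07 with it. CDH2 took 29.9% ± 2.32 of that sum at D1 without and 60.9% ± 1.28 with TGF-β, and 18.8% ± 1.90 at D20 without and 55.0% ± 4.82 with it (SD, n = 3 each). Of these 3 genes CDH11 took the largest share in both untreated conditions, 41.3% ± 3.64 at D1 and 66.3% ± 2.72 at D20, against 28.4% ± 1.01 and 34.7% ± 5.69 with TGF-β. CDH13 went from 28.8% ± 4.95 at D1 to 14.9% ± 0.86 at D20, and lay at 10.7% ± 0.721 and 10.4% ± 0.926 with TGF-β. The flasks of treated and untreated cells did not overlap in any of these shares on either day, and the exact two-sided permutation p was 0.1 each time, the smallest that 3 against 3 flasks can give. The order of CDH2 and CDH11 at D20+ TGF-β rests on the length scaling: in cpm alone CDH11 (97.1 cpm) lay above CDH2 (92.7 cpm), whose share was then 41.3%. CDH6, described below, is not in this sum. In cpm it lay above CDH2 and CDH11 in all 4 conditions, at 136 and 322 cpm at D1 without and with TGF-β and 200 and 163 cpm at D20. The shares therefore hold only among CDH2, CDH11 and CDH13.

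**Figure D2:**
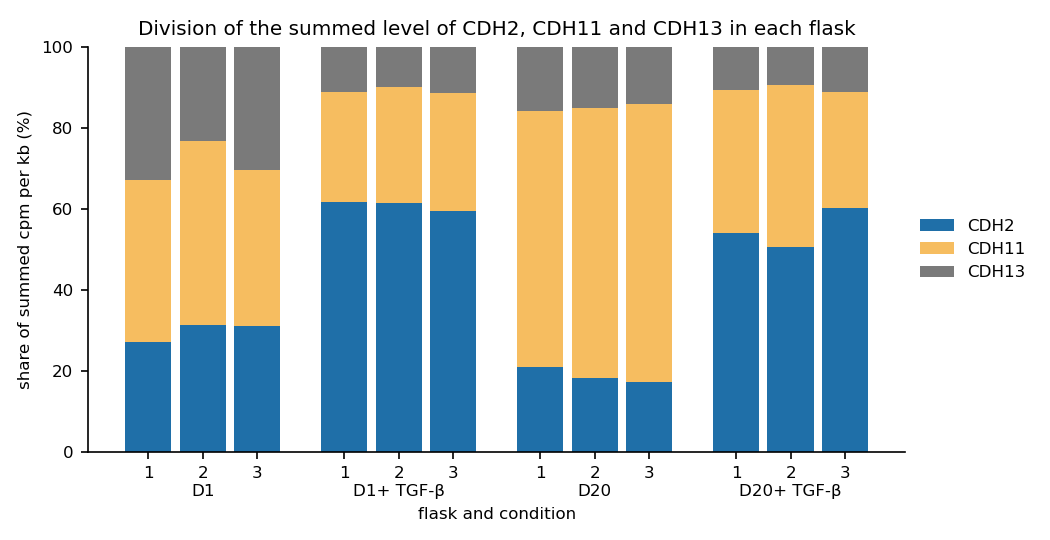
Division of the summed cpm per kb of CDH2, CDH11 and CDH13 in each flask; each bar is 1 flask and its parts add to 100%. The CDH2 part is 50.7% to 61.7% in flasks with TGF-β and 17.2% to 31.3% in flasks without.

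Of 16 other classical cadherins, 2 passed the filter, CDH4 and CDH6, and 14 did not. R-cadherin (CDH4) was at 10.2 ± 4.24 and 20.5 ± 1.13 cpm (SD, n = 3) at D1 without and with TGF-β, and at 5.74 ± 0.610 and 14.9 ± 5.08 cpm at D20. Its rise with TGF-β was called at D20 (log2 fold change 1.39, SE 0.28, edgeR adjusted p = 0.00129), and at D1 it was close to the threshold (1.03, SE 0.25, adjusted p = 0.00956, and above it in 12 of 22 other settings). CDH4 passed the filter through its treated flasks, all over 10 cpm, while all D20 flasks lay under it (6.40, 5.62 and 5.20 cpm). Among low genes the filter can favour such a pattern. K-cadherin (CDH6), a cadherin of kidney and mesenchyme, had a pattern like that of CDH11 in sign. At D1 it rose from 111, 190 and 107 cpm to 315, 328 and 323 cpm with TGF-β (log2 fold change 1.24, SE 0.17, edgeR adjusted p = 0.000179) and was at 192, 196 and 213 cpm at D20 and 140, 178 and 171 cpm at D20+ TGF-β (-0.30, SE 0.17, adjusted p = 0.175). Its responses differed by -1.54 (SE 0.24, edgeR adjusted p = 0.000737). CDH5, CDH7, CDH8, CDH19 and CDH22 had 0 of the 153249561 counts of all libraries, which allows up to 0.0196 cpm if the counting could assign reads to them, which was not checked. CDH24 was just below the filter at 7.88 to 11.4 cpm as condition means.

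Among 31 other genes of the cadherin superfamily, which include protocadherins and the very large FAT and Dachsous proteins, 9 passed the filter. At D1, 0 of them were called higher with TGF-β and 3 lower (against 6.89% and 6.50% of all genes), and at D20 1 higher and 3 lower (against 12.8% and 14.7%). With time 5 rose and 0 fell under TGF-β (against 17.2% and 17.7% of all genes), and 3 rose and 1 fell without it (against 18.9% and 17.6%). Protocadherin PCDH18 was at 272, 649 and 241 cpm at D1 and, with TGF-β, at 79.8, 82.3 and 84.0 cpm. At D20 its flasks stood at 918, 936 and 920 cpm without and 408, 469 and 214 cpm with TGF-β. It fell with TGF-β on both days, by 2.24 (SE 0.34, edgeR adjusted p = 0.000337) and by 1.35 (SE 0.32, adjusted p = 0.00442) on the log2 scale. The D1 value was -1.64 without replicate 2 of D1. The D20 call was lost without any 1 of the D20 flasks and without replicate 1 or 3 of D20+ TGF-β (edgeR adjusted p up to 0.0141). DCHS1, a Dachsous cadherin that binds FAT4, was at 54.8 ± 14.5 and 61.0 ± 5.59 cpm at D1 and rose from 55.7 ± 5.38 to 147 ± 18.2 cpm at D20 (SD, n = 3; log2 fold change 1.39, SE 0.15, edgeR adjusted p = 1e-05). The γ-protocadherins in this list share exons, and reads could be divided among them by the counting.

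**Figure D3:**
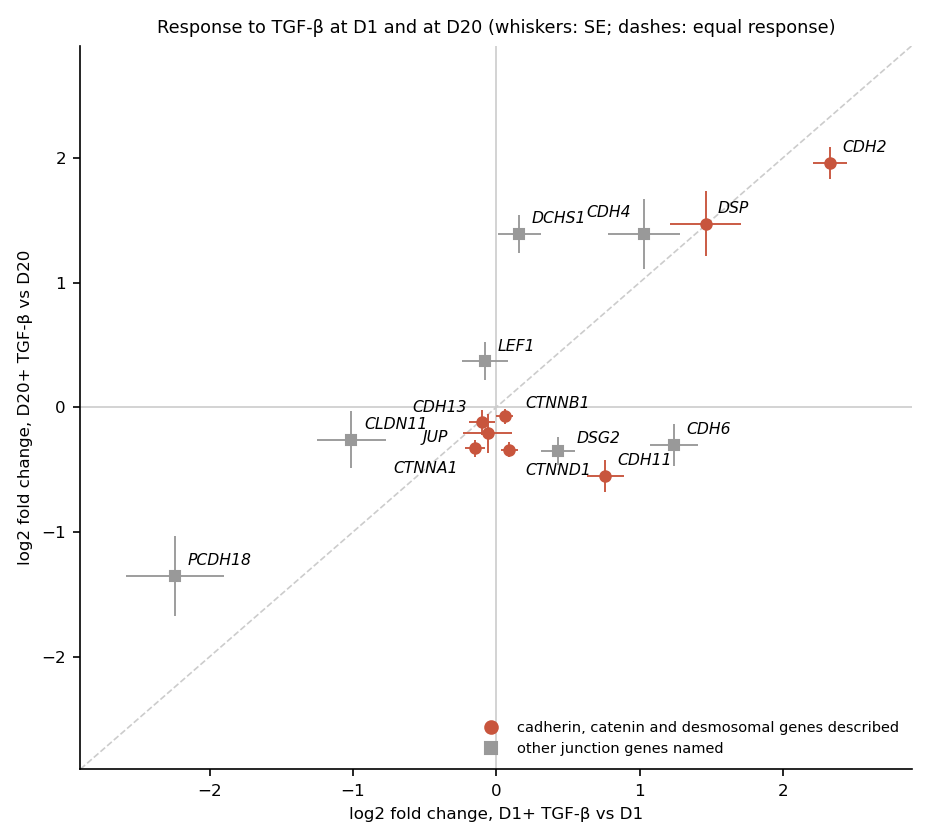
Response to TGF-β at D1 (horizontal) and at D20 (vertical), both as log2 fold changes with SE; circles are the 8 tested genes, squares the named genes of the other lists, and the dashed line marks equal responses. CDH2 and DSP lie near that line in the upper right, CDH11 and CDH6 lie right of 0 and below 0, and DCHS1 lies high above the line, at 0.16 and 1.39.

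CTNNB1, β-catenin, on chromosome 3 at 41236232 to 41301587, plus strand, is both a cadherin partner and the transcription partner of TCF and LEF factors in Wnt signalling. It was at 439, 484 and 447 cpm at D1 and, with TGF-β, at 476, 476 and 474 cpm. At D20 its flasks stood at 447, 456 and 448 cpm without and 434, 430 and 426 cpm with TGF-β. The condition means lay within 1.10-fold. The log2 response was 0.06 at D1 (95% interval -0.08 to 0.19) and -0.07 at D20 (95% interval -0.20 to 0.07), so that the intervals run from 0.949-fold to 1.14-fold at D1 and from 0.871-fold to 1.05-fold at D20. The largest in size of its 4 differences was -0.14, between D20 and D1 under TGF-β (95% interval -0.28 to -0.01, edgeR adjusted p = 0.0672). ULK4 overlaps the gene on the other strand.

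CTNNA1, αE-catenin, on chromosome 5 at 137946656 to 138270723, plus strand, holds LRRTM2 and CTNNA1-AS1 on its other strand. It was at 512, 553 and 509 cpm at D1 and 466, 474 and 479 cpm at D1+ TGF-β, with no overlap but no call (log2 fold change -0.15, SE 0.07, edgeR adjusted p = 0.165). At D20 the flasks stood at 581, 583 and 565 cpm and with TGF-β at 428, 439 and 509 cpm, where replicate 3, the library that stood apart, was nearest to the untreated flasks. That 1.26-fold lower level was called (log2 fold change -0.33, SE 0.07, edgeR adjusted p = 0.00324). The call was lost without any 1 of the D20 flasks or without replicate 1 or 2 of D20+ TGF-β, with an adjusted p of 0.0107 to 0.0228 by edgeR. With time, the differences were 0.13 without TGF-β (95% interval -0.03 to 0.30) and -0.05 with it (95% interval -0.21 to 0.12).

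CTNND1, p120-catenin, on chromosome 11 at 57520715 to 57587018, plus strand, was at 307, 301 and 290 cpm at D1 and 315, 316 and 324 cpm at D1+ TGF-β. It was at 405, 408 and 437 cpm at D20 and 318, 345 and 326 cpm at D20+ TGF-β, so that the untreated D20 flasks were above all others. It rose 1.39-fold with time without TGF-β (log2 fold change 0.48, SE 0.06, edgeR adjusted p = 3.88e-05). Under TGF-β the flasks of both days overlapped (0.05, 95% interval -0.09 to 0.19). It was 1.26-fold lower with TGF-β at D20 (log2 fold change -0.34, SE 0.06, edgeR adjusted p = 0.000841) and at 0.09 (95% interval -0.05 to 0.22) at D1. The difference of the responses was -0.43 (SE 0.09, edgeR adjusted p = 0.00472). That call was lost in 10 of 21 other settings, among them each fit without 1 flask of D1+ TGF-β or of D20 (edgeR adjusted p up to 0.0229).

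Of 19 further catenins and adherens junction partners, such as vinculin, afadin and nectins, 14 passed the filter. With TGF-β 2 were called higher and 0 lower at D1 (against 6.89% and 6.50% of all genes), and 1 higher and 5 lower at D20 (against 12.8% and 14.7%). Under TGF-β 0 rose and 5 fell with time (against 17.2% and 17.7% of all genes), and without it 1 rose and 1 fell (against 18.9% and 17.6%). Their median log2 fold change was 0.04 at D1 and -0.25 at D20, beside -0.02 and 0.01 over all genes. Of 18 genes of β-catenin turnover and its targets 10 were tested. With TGF-β 1 was called higher and 0 lower at D1 (against 6.89% and 6.50% of all genes). At D20 0 were higher and 3 lower (against 12.8% and 14.7%). With time 2 rose and 1 fell under TGF-β (against 17.2% and 17.7%). Without it 5 rose and 0 fell (against 18.9% and 17.6%). LEF1, a DNA-binding partner of β-catenin, was at 10.1 ± 0.615 and 9.35 ± 1.25 cpm at D1 without and with TGF-β and at 15.0 ± 1.13 and 19.4 ± 4.47 cpm at D20 (SD, n = 3). It rose with time under TGF-β (log2 fold change 1.02, SE 0.16, edgeR adjusted p = 0.000142) and without it (0.57, SE 0.15, adjusted p = 0.00741), where the call was lost in 11 of 22 other settings, among them each fit without 1 flask of D1 or of D20 (edgeR adjusted p up to 0.029). In LEF1 all flasks of day 20 exceeded the 10 cpm of the filter and most of day 1 did not, a pattern that the filter can favour. Of 10 genes of cadherin cleavage and trafficking, such as ADAM10, 8 were tested. With TGF-β 0 were higher and 2 lower at D1 (against 6.89% and 6.50% of all genes), and 0 higher and 3 lower at D20 (against 12.8% and 14.7%). With time 4 rose and 1 fell under TGF-β (against 17.2% and 17.7%), and 4 rose and 0 fell without it (against 18.9% and 17.6%).

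DSP encodes desmoplakin and lies on chromosome 6 at 7541571 to 7586947, plus strand, with DSP-AS1 on the other strand. Its RefSeq upstream window held 2 copies of the E-box CAGGTG, a form that SNAI and ZEB repressors are known to bind, as did 1 of the 2 starts of JUP. They are shown, with E-boxes of either strand in capitals, because DSP rose with TGF-β on both days while no TGF-β response of JUP was called. The DSP stretches lie at chr6:7541719-7541738 and chr6:7541812-7541831, plus strand, and the E-boxes begin 178 and 85 bases before the start, inside the first exon of a DSP transcript that begins further upstream. The JUP stretch lies at chr17:39942262-39942289, minus strand, and its E-boxes begin 54 and 43 bases before the start, inside exons of other JUP transcripts.
DSP far: gcgggcgCAGGTGgggaggg
DSP near: aaccggcCAGGTGtggccta
JUP: ctggcccCACCTGccgagCAGGTGagcg
At least 1 such E-box was found in 17.5% and at least 2 in 2.53% of 35116 RefSeq starts over 250 bases. In 10 starts of DSP, JUP, CDH2, CTNNA1 and CTNNB1 together, E-boxes were found in 2, CAGAC in 4 (38% of all starts), the AP-1 form TGANTCA in 1 (6.57%) and the TEAD form GGAATG in 0 (11.9%), on both strands.

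DSP was at 9.88, 19.9 and 7.49 cpm at D1 and at 33.8, 36.9 and 33.4 cpm at D1+ TGF-β. At D20 it was at 9.12, 11.4 and 11.6 cpm without and 24.1, 32.4 and 33.7 cpm with TGF-β. Treated and untreated flasks did not overlap on either day, and flasks of the same treatment overlapped between the days. The response was 2.75-fold at D1 (log2 fold change 1.46, SE 0.25, edgeR adjusted p = 0.00102) and 2.76-fold at D20 (1.47, SE 0.26, adjusted p = 0.000534), and the responses differed by 0.01 (95% interval -0.76 to 0.78). Time made a difference of -0.23 without TGF-β (95% interval -0.82 to 0.35) and of -0.22 with it (95% interval -0.74 to 0.29).

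Replicate 2 of D1 was high in DSP, 2.29 times the mean of the other D1 flasks, a ratio of a size that 0.548% of all genes reached in that library. All 4 lanes of the library shared it, with 16.3 to 24.1 cpm against 7.22 to 12.4 and 7.04 to 8.95 cpm in the lanes of replicates 1 and 3. Without that flask the log2 response of DSP at D1 was 2.01 (edgeR adjusted p = 2.14e-06), the difference of the responses -0.54 (adjusted p = 0.0849) and the difference between D20 and D1 without TGF-β 0.30 (adjusted p = 0.181), of the other sign.

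JUP, plakoglobin, serves both adherens junctions and desmosomes and lies on chromosome 17 at 39910856 to 39943183, minus strand. It was at 55.5, 64.8 and 42.8 cpm at D1 and 55.2, 56.8 and 44.7 cpm at D1+ TGF-β, with overlap. At D20 it was at 109, 121 and 111 cpm, and with TGF-β at 112, 110 and 71.7 cpm, where the last value is the library that stood apart, 0.645 times the mean of its mates. Every D20 flask was above every D1 flask. JUP rose with time 2.08-fold without TGF-β (log2 fold change 1.06, SE 0.17, edgeR adjusted p = 0.000155) and 1.87-fold with it (0.91, SE 0.17, adjusted p = 0.000667). TGF-β responses were -0.06 at D1 (95% interval -0.42 to 0.31) and -0.21 at D20 (95% interval -0.56 to 0.14). β-catenin and plakoglobin, which take the same place on the cadherin tail, differed over time: per kilobase JUP went from 15.5 ± 3.14 to 32.4 ± 1.84 cpm without TGF-β and CTNNB1 from 125 ± 6.46 to 123 ± 1.30 (SD, n = 3).

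PKP2, plakophilin 2, on chromosome 12 at 32943679 to 33049732, minus strand, was near the limit of detection. Its counts in replicates 1, 2 and 3 were 1, 0 and 0 at D1, 0, 1 and 0 at D1+ TGF-β, 0, 1 and 1 at D20 and 4, 3 and 2 at D20+ TGF-β. In sums these are 1 of 37996985, 1 of 35688231, 2 of 41532508 and 9 of 38031837 counts. The ratio between D20+ TGF-β and D20 was 4.91 (exact 95% interval 1.02 to 46.7, counting error only), and in the fit without the filter its edgeR adjusted p was 0.139.

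Most other desmosomal genes were below the filter. Of 12 other desmosomal genes only DSG2 and PERP passed the filter, and DSG1, DSG4, DSC1, DSC2, DSC3 and EVPL had 0 counts in all libraries, which allows up to 0.0196 cpm each under the same condition. PERP averaged 316 cpm over all libraries, above every DSP flask. PPL, below the filter and described further below, ran from 4.75 to 23.6 cpm as condition means. With TGF-β, 0 of the tested genes were called at D1 (against 6.89% of all genes higher and 6.50% lower). At D20 1 was lower, PERP (log2 fold change -0.57), and 0 were higher (against 12.8% of all genes higher and 14.7% lower). With time, 0 were called under TGF-β (against 17.2% and 17.7%) and both rose without it (against 18.9% and 17.6%). Desmoglein 2 (DSG2), the cadherin of simple desmosomes, was at 19.9, 17.2 and 18.5 cpm at D1 and, with TGF-β, at 24.2, 26.2 and 24.3 cpm. At D20 its flasks stood at 40.8, 41.2 and 38.7 cpm without and 26.7, 29.7 and 38.7 cpm with TGF-β. It rose 2.17-fold with time without TGF-β (log2 fold change 1.12, SE 0.12, edgeR adjusted p = 5.43e-06), and its responses to TGF-β differed by -0.78 (SE 0.17, adjusted p = 0.0051). The latter call was lost in 10 of 21 other settings, among them each fit without 1 flask of D1+ TGF-β or of D20 and the fit without composition factors (edgeR adjusted p up to 0.0202). PKP1 and PKP3, the other plakophilins of the list, stayed at or under 0.293 and 0.987 cpm as condition means.

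Of 9 intermediate filament genes and linkers, 5 passed the filter. With TGF-β 1 was higher and 0 lower at D1 and 0 higher and 1 lower at D20, and with time 1 rose and 1 fell under TGF-β and 2 rose and 0 fell without. KRT5 and KRT14 were at 0, and vimentin (VIM), the main filament protein of fibroblasts, averaged 6833 cpm. Of 19 tight and gap junction genes 8 passed. With TGF-β 0 were higher and 1 lower at D1 and 0 higher and 2 lower at D20, and with time 1 rose and 3 fell under TGF-β and 2 rose and 2 fell without. For both lists these counts stand beside 6.89% and 6.50% of all genes at D1, 12.8% and 14.7% at D20, 17.2% and 17.7% with time under TGF-β and 18.9% and 17.6% without it. Claudin 11 (CLDN11), a tight junction protein, was at 254, 108 and 264 cpm at D1 and, with TGF-β, at 103, 98.5 and 109 cpm, where replicate 2 of D1 overlapped the treated flasks (log2 fold change -1.01, SE 0.24, edgeR adjusted p = 0.00711). That call was lost in 12 of 22 other settings, among them the fit without replicate 1 of D1 (edgeR adjusted p = 0.0391). At D20 it was at 408, 408 and 420 cpm without and 326, 313 and 391 cpm with TGF-β. It rose with time in both arms (log2 fold change 1.73, SE 0.24, edgeR adjusted p = 6.83e-05 with TGF-β, and 0.99, SE 0.23, adjusted p = 0.00306 without), the latter not called without replicate 3 of D20 or with only the 6 libraries compared (edgeR adjusted p up to 0.0133).

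Over the 12 libraries, which share the 4 condition means, the log2 cpm of DSP and CDH2 moved together (Pearson r 0.92), while JUP and CDH13 moved in opposite ways (r -0.91) and CTNND1 moved with JUP (r 0.75). CTNNA1 ran against CDH2 (r -0.76). The genes most like CDH2 were F2RL1, a protease-activated receptor (r 0.989), TENM3, a teneurin (r 0.989), and HSPA13 (r 0.987). Those most like DSP were SIK1, a salt-inducible kinase (r 0.978), SPICE1 (r 0.974) and SLC1A4, an amino acid transporter (r 0.963). These 3 averaged 3.64, 9.11 and 5.55 cpm at D1 and 3.59, 8.2 and 6.1 cpm at D20. With TGF-β they averaged 17.3, 12.7 and 16.2 cpm at D1 and 12.8, 11.9 and 14.3 cpm at D20. Their means reached the 10 cpm of the filter only with TGF-β, and among low genes the filter can favour such a pattern. Those most like JUP were DTWD1 (r 0.981), HBP1, a transcription factor (r 0.975), and ZRANB1 (r 0.971).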

How the data were processed

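RNA of WI-38 cells was sequenced in 12 libraries, 3 flasks in each of 4 conditions, with a directional kit and 4 lanes per library. The authors trimmed reads with Trimmomatic, mapped them to hg19 with Rsubread and deposited raw counts per gene and lane; the counter, annotation and use of strand are not given in the sources used here, so reads of genes on opposite strands may not be told apart. They also deposited log2 cpm as voom writes them, for 9412 genes, used here in 1 alternative. Lanes were summed per library, columns were assigned by name, and 0 columns were left unassigned.

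Testing used edgeR 4.0.16 under R 4.3.3 (TMM factors, quasi-likelihood fit, 1 mean per condition, all 12 libraries, Benjamini-Hochberg adjustment over 9490 genes of 20434 with a count, threshold 0.01). Log2 cpm used a prior count of 2. Depth was 8674488 to 18286197 counts per library and the common biological coefficient of variation 9.35%; errors are between flasks, and counting intervals and limits (3 counts) cover counting error only. Lengths and positions are from GENCODE v44 on GRCh37, upstream sequences from RefSeq; PKP2, CDH11, CDH13 and CTNND1 have no entry in the table used. The members and the 8 lists (134 genes) were chosen with earlier results of these data known. Named list genes were those called with a log2 fold change of at least 1, at most 6 per list, and of genes below the filter at most 3 per list with the highest mean. Genes alike were the 3 with the highest r, for genes spanning at least 1 on the log2 scale. The cadherins and desmosomal genes at 0 counts, PERP and VIM were named outside that rule, after their values were seen. DESeq2 1.42.0, limma 3.58.1 with voom, other scalings and filters, the replicate block and leaving out each flask were the alternatives. The code was tested on simulated data.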

Additional observations from a re-analysis of the deposited data

Results flagged for a closer look

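The response to TGF-β differed between D20 and D1 in 2 of the 8 tested members, by edgeR's quasi-likelihood test of the difference itself. Of all genes, 4.51% differed upward and 5.87% downward. By the same test it differed in 3 of the 7 named genes of the other junction lists. Those 7 were named for their large changes in these same data, so their number cannot be set against the shares of all genes. List genes not named also differed: over the whole lists, 1 of 14 adherens junction partners differed upward and 3 downward, 1 of 8 cleavage and trafficking genes upward and 2 downward, and 1 downward each of 5 intermediate filament genes and 8 tight and gap junction genes. CDH11 differed by -1.30 on the log2 scale (0.76 at D1 and -0.55 at D20, edgeR adjusted p = 0.000458), CDH6 by -1.54 (1.24 and -0.30, adjusted p = 0.000737) and DCHS1 by 1.24 (0.16 and 1.39, adjusted p = 0.00153). CTNND1 differed by -0.43 (0.09 and -0.34, edgeR adjusted p = 0.00472) and DSG2 by -0.78 (0.43 and -0.35, adjusted p = 0.0051). The calls of CTNND1 and DSG2 were each lost in 10 of 21 other settings (edgeR adjusted p up to 0.0229 and 0.0202), while CDH11, CDH6 and DCHS1 kept theirs in all 21. The D20 flasks also differ from the D1 flasks in passage and re-seeding, and may differ in cell density, none of which can be told apart from the duration of treatment. The RNA of ACTA2 differed by -1.94 (2.07 and 0.13, edgeR adjusted p = 0.000123). The marker of the authors was its protein, α-smooth muscle actin. By immunofluorescence they reported it in no cells after 1 day of TGF-β and in most treated cells after 20 days. By western blot they reported more of it with TGF-β than without at day 20. Stained cells, blots and bulk RNA are unlike measures, and why the RNA showed another pattern over the 2 days was not tested.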

How the results depend on the processing

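Each result was recomputed under up to 22 other settings. For the 8 tested members, 816 of the recomputed fold changes kept their direction and their side of the threshold, 27 lost a call, 7 gained one (all with the 48 lanes as samples, which counts each library 4 times) and 22 changed sign. The number of members called was 5 in D1+ TGF-β vs D1 and 5 for the difference of responses with the 48 lanes as samples. For the difference of responses it was 1 without composition factors, without the gene filter and with the replicate block. Leaving out 1 flask gave 3 to 5 called members in D20+ TGF-β vs D20 and 1 to 2 for the difference of responses. The replicate numbers were not treated as pairs in the main fit. The deviations of 18 same-numbered pairs correlated at -0.22 to 0.32, 4 of them over 0.1. Pairs with different numbers were not computed beside them, so whether the numbers pair the samples was not settled. The replicate block took the CTNND1 difference to an adjusted p of 0.012 (edgeR) and changed no other member call. The DSP difference of responses was -0.13 (limma-voom), -0.16 (48 lanes), -0.14 (deposited log2 values) and -0.02 (replicate block), and -0.54 to 0.26 without 1 flask. CDH13's was 0.09 without composition factors, which moved the median of all genes to 0.125, and 0.02 without the filter, and -0.13 to 0.06 without 1 flask. CTNNB1 in D1+ TGF-β vs D1 was -0.01 without composition factors. Without 1 flask, DSP in D20 vs D1 was -0.49 to 0.30, JUP in D1+ TGF-β vs D1 -0.20 to 0.10, the JUP difference of responses -0.29 to 0.03, CTNNA1 with time under TGF-β -0.13 to 0.01 and CTNNB1 in D20 vs D1 -0.05 to 0.01. The CDH2 share was 25.2% at D1, 56.4% at D1+ TGF-β and 16.6% at D20 with merged exon lengths, and 19.2% and 47.0% at D1 without and with TGF-β and 11.8% and 41.3% at D20 with no length, so the order of conditions held but the values rest on the length used. Of the list genes' calls 358 were kept and 57 lost.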

Other observations

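Some genes of the lists below the filter differed between conditions in the fit without it, and those described here were picked by their values. CELSR3, JAM2, DES and PCSK5 also passed an adjusted p of 0.01 in some comparison by edgeR. CELSR2, F11R, NECTIN4, PKP1, PKP3, PLEKHA7, KRT7, CDH24, PCSK6, CDH15, CTNNA2 and OCLN passed in none. The share of all genes called in that fit is not given, so no excess is claimed. Periplakin (PPL), a plakin related to desmoplakin, was at 16.0, 21.3 and 33.5 cpm at D20+ TGF-β and at 4.66, 5.24 and 4.35 cpm at D20 (log2 fold change 2.32, SE 0.32, edgeR adjusted p = 2.5e-06), and at 11.5, 1.99 and 8.09 cpm at D1 and 4.25, 4.59 and 5.81 cpm at D1+ TGF-β. Its responses differed by 2.86 (SE 0.48, edgeR adjusted p = 0.000139). CDH18, a classical cadherin of the nervous system, had 119 counts over the D20+ TGF-β flasks and 5 over the D20 flasks (edgeR adjusted p = 3.93e-07), at 2.46, 1.85 and 5.54 cpm in the treated flasks. Protocadherin PCDH9 rose at D1 from 6.28 ± 0.232 to 17.8 ± 1.88 cpm (SD, n = 3; log2 fold change 1.49, SE 0.14, edgeR adjusted p = 6.06e-09) and was at 7.74 ± 0.150 and 9.46 ± 0.674 cpm at D20 (0.31, SE 0.14, adjusted p = 0.106).

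NKD2, a protein that binds Dishevelled in Wnt signalling, was at 1.37, 0.797 and 0.340 cpm at D1 and at 16.8, 14.4 and 13.3 cpm at D20 (log2 fold change 4.05, SE 0.32, edgeR adjusted p = 9.67e-11). With TGF-β it was at 5.77, 8.84 and 3.15 cpm at D20, a log2 fold change of -1.31 (SE 0.24, edgeR adjusted p = 0.000106). AXIN2, a β-catenin target, rose with time from 1.50 ± 0.179 to 4.33 ± 1.19 cpm under TGF-β (SD, n = 3; log2 fold change 1.50, SE 0.27, edgeR adjusted p = 7.98e-05) and from 1.89 ± 0.632 to 3.82 ± 0.478 cpm without it (0.91, SE 0.25, adjusted p = 0.00548), while TCF7 was at 8.53 ± 3.69 cpm at D1 and 4.52 ± 0.802 cpm at D20 (-1.03, SE 0.24, adjusted p = 0.00112).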
